A study of Homo sapiens with 3 samples.

Results

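The YTHDC1 peaks described here lie in introns of protein-coding genes, away from annotated transcript starts. YTHDC1 was mapped on chromatin by ChIP-seq (chromatin immunoprecipitation followed by sequencing) in A549 cells, an established cell line from a human lung adenocarcinoma. The series held 3 replicates of 1 group, YTHDC1 ChIP in WT A549 cells with no treatment or knockdown named in the labels, and the authors pooled them before calling 1 set of 6368 peaks on hg19. A peak was taken as an intron peak if its midpoint lay over 1000 bases from every annotated transcript start, inside a protein-coding gene and outside every exon (GENCODE release 44 mapped to GRCh37). There were 795 such peaks, 12.5% of the set. The others were 4147 peaks within 1000 bases of a start, 212 exonic and 950 intergenic peaks away from starts, and 264 away from starts inside genes that do not code for proteins. With replicates pooled there is no spread between replicates, the depth of each sample is unknown, and no input or IgG library was analysed here. All intervals below are 95% intervals that treat peaks or genes of the pooled set as the units and cover counting error only. A549 is a single line, and the cells were crosslinked with formaldehyde and their chromatin sonicated.

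YTHDC1 is a nuclear reader of N6-methyladenosine (m6A), the most common internal modification of messenger RNA. Methylation is placed on nascent transcripts by the METTL3-METTL14 complex, and intronic RNA is present on chromatin only until it is spliced out. YTHDC1 is known to act in splicing, in nuclear export of RNA and at chromatin, where it is recruited through RNA. Introns also hold many of the enhancers of mammalian genomes, and AP-1, TEAD, C/EBP and FOX factors are among the families known to bind enhancers in epithelial cells. Neither RNA nor any of these factors was measured in the files used here.

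The sequences of the 5 intron peaks with the highest −log10 q (1 per host gene, with under 10% repeated sequence) are given first, to show what the most significant of these regions look like. The host gene is the protein-coding gene that holds the midpoint. Each stretch is the central 151 bases of the peak on the + strand of hg19, and capitals would mark a match to the AP-1 motif TGANTCA, of which these 5 stretches held none. They lay at chr3:89163726-89163876 (EPHA3), chr5:60704499-60704649 (ZSWIM6), chr9:35518279-35518429 (RUSC2), chr17:2863613-2863763 (RAP1GAP2) and chr1:230218883-230219033 (GALNT2).
EPHA3: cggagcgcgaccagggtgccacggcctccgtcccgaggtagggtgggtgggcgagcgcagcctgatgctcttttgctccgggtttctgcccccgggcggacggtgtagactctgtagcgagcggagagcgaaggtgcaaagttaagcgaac
ZSWIM6: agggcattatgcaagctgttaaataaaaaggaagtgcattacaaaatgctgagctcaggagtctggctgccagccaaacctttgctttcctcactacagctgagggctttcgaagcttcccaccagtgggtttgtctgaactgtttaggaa
RUSC2: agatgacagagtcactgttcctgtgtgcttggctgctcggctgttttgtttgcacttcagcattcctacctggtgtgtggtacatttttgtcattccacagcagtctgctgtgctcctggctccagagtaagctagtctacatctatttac
RAP1GAP2: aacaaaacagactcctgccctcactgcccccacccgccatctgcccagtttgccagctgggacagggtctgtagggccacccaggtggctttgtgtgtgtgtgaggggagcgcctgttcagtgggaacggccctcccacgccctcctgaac
GALNT2: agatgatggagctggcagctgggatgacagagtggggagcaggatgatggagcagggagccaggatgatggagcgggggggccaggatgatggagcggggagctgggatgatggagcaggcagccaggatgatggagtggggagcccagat
The stretches differed widely in composition. In the GALNT2 stretch a short unit recurred side by side with small changes. Repeated sequence was measured as exact stretches of 31 bases that occur elsewhere (4.67% in this peak), which does not capture such inexact repeats. EPHA3 had 66.2% GC, RAP1GAP2 63.6% and GALNT2 62.9%, while ZSWIM6 and RUSC2 had 46.4% and 47.7%. EPHA3 held a match to the SP/KLF motif GGGCGG and RUSC2 held 2 to the TEAD motif GGAATG.

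The next sequences show AP-1, a motif found at a larger share of intron peaks than of intron sequence. They are the 3 highest intron peaks with a match that had under 10% repeated sequence and a host not shown above, which left out the higher peaks in SULT2B1 (16.5% repeated) and GALNT2. Each is centred on the match, in capitals, and spans 101 bases of the + strand of hg19, at chr15:93347307-93347407 (FAM174B), chr19:45959192-45959292 (ERCC1) and chr15:66125140-66125240 (RAB11A).
FAM174B: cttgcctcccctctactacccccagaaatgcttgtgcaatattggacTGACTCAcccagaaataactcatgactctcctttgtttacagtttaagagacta
ERCC1: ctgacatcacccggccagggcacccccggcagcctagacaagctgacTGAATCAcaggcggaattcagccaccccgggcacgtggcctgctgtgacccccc
RAB11A: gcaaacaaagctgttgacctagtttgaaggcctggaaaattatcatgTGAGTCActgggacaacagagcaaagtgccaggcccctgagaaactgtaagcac
The FAM174B stretch also held 1 match each to the C/EBP, FOX, CCAAT and m6A consensus motifs spelled out further below, and the ERCC1 stretch held 1 E-box. A match is a description of the letters and not a bound site.

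Most intron peaks were weak. The value of a peak is −log10 of the q-value written by the authors' peak caller, so that a higher value is a more significant peak and 1.30 corresponds to a q-value of 0.05. Intron peaks ranged between 0.621 and 7.85, with a median of 1.22 and quartiles of 0.916 and 1.79. None of the 44 peaks over 10 in the whole set was an intron peak, and 12 intron peaks exceeded 5. The median width was 315 bases and the longest peak spanned 1821 bases. The midpoints lay a median of 42.3 kb from the start of the host's canonical transcript, 7565 bases from the nearest annotated start of any transcript and 2694 bases from the nearest exon.

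EPHA3, which encodes an ephrin receptor tyrosine kinase, held the highest intron peak, in intron 1 of 16 (chromosome 3, 89163561 to 89164041, −log10 q 7.85). ZSWIM6 followed with a peak in intron 1 of 13 (chromosome 5, 60704331 to 60704816, 7.60), 76.5 kb from its canonical start. RUSC2, an adaptor protein gene, had 7.49 in intron 1 of 11 on chromosome 9 (35518183 to 35518524). These 3 peaks were all in intron 1, and none of the 3 hosts had a peak at a start. RAP1GAP2, which encodes an activator of GTP hydrolysis by Rap1, had 7.24 in intron 4 of 24 (chromosome 17, 2863455 to 2863921). GALNT2, a glycosyltransferase that initiates O-linked glycosylation, had a pair of peaks in intron 1 of 15 on chromosome 1, at 230218579 to 230219336 with 7.17 and at 230240474 to 230240902 with 5.82.

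BCL3, a nuclear co-regulator of NF-kappaB, had 6.32 in intron 2 of 8 (chromosome 19, 45256475 to 45256904), 4.73 kb from the canonical start of a gene that also had a start peak. SULT2B1, a steroid sulfotransferase, had 6.00 in intron 1 (chromosome 19, 49068466 to 49068743) over sequence with 16.5% repeated 31-mers, the share of stretches of 31 bases that occur elsewhere in the assembly. ITPR1, a calcium release channel of the endoplasmic reticulum, had 5.88 in intron 44 of 61 (chromosome 3, 4786160 to 4786480). These peaks lay at very different depths in their hosts, with ITPR1 251 kb from its canonical start. EXD3 had 5.31 in intron 17 of 21 (chromosome 9, 140222200 to 140222994), with 40.4% repeated 31-mers. FAM174B (chromosome 15, 93347147 to 93347662, 5.24) and the repair endonuclease subunit gene ERCC1 (chromosome 19, 45958910 to 45959577, 5.23) completed the 12 highest. Both midpoints lay outside the canonical transcript, inside a longer annotated form of the gene, and both hosts had a start peak.

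**Figure D1:**
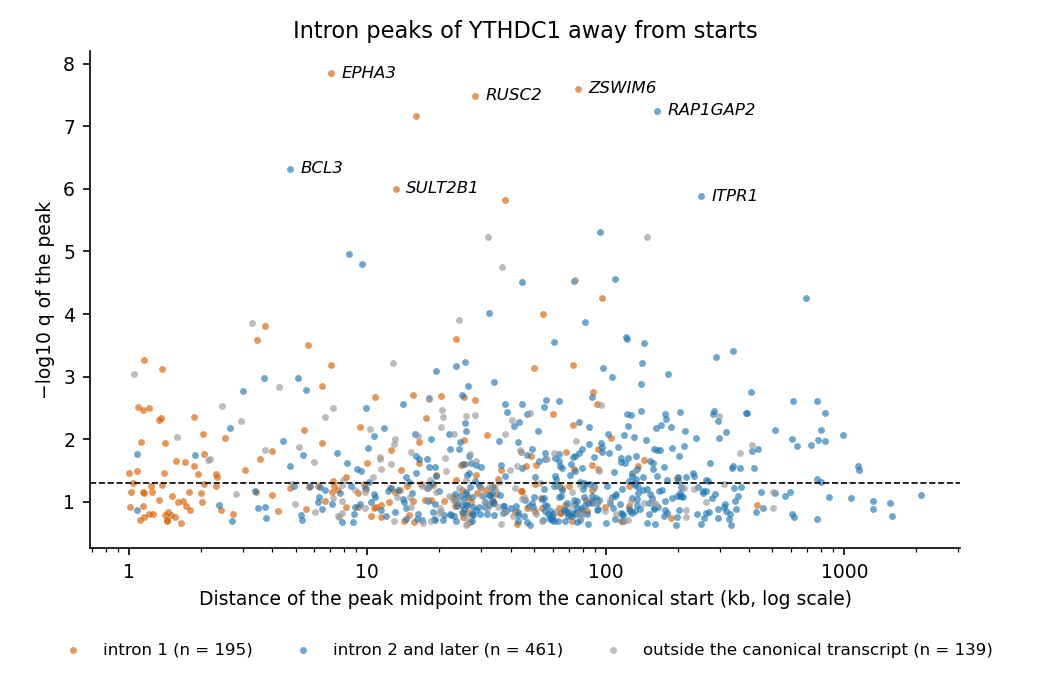
Each point is 1 of the 795 intron peaks, with its −log10 q (y axis) against the distance of its midpoint from the host's canonical start (x axis, kb, log scale), coloured by intron 1, later introns or a position outside the canonical transcript. The dashed line marks a q-value of 0.05, and the highest points include EPHA3 at 7.85 and ITPR1 at 5.88, while most points lie below 2.

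The widest intron peaks belonged to other hosts. H2AC6, a replication-dependent histone H2A gene, held one of 1821 bases (chromosome 6, 26124540 to 26126360, −log10 q 3.04), 1.05 kb from its canonical start. EEF1A1, a translation elongation factor gene, held one of 1083 bases in which 38.7% of 31-mers were repeated, so its reads cannot be assigned to this copy with certainty. The other widest peaks were in SHB (1055 bases), in the chemokine gene CXCL1 (969 bases) and in RFC4, a subunit of the clamp loader of DNA replication (966 bases). SHB, CXCL1 and RFC4 ranked only 241, 210 and 140 among the 795 peaks by −log10 q. The midpoints in H2AC6, CXCL1 and RFC4 lay 473, 47 and 153 bases from an exon. At their widths these peaks ran over an exon, and they count as intron peaks by the midpoint alone. The H2AC6 and EEF1A1 midpoints lay outside the canonical transcript, which in H2AC6 has no intron.

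Among the introns of canonical transcripts, the density of peaks was highest in the early ones. Densities are peaks per Mb of eligible sequence, that is, of the 1087 Mb that the definition allows (in a protein-coding gene, outside exons, over 1000 bases from every start and with no unread base), over which the mean was 0.731 per Mb (0.681 to 0.784). Intron 1 of the canonical transcript held 195 peaks, or 0.848 per Mb (0.734 to 0.976). Intron 2 held 115 peaks, or 0.775 per Mb (0.640 to 0.930), introns 3 to 5 held 147, or 0.647 per Mb (0.547 to 0.761), and intron 6 and later held 199, or 0.585 per Mb (0.507 to 0.673). Neighbouring classes in this order had overlapping intervals, whereas the ratio of intron 1 over intron 6 and later was 1.45 (1.18 to 1.77). It was 1.31 (1.07 to 1.61) when pooled within classes of gene length and 1.35 (1.10 to 1.65) against the number expected from GC content. With peaks over 2000 bases from starts it was 1.17 (0.931 to 1.47), an interval that included 1, and with peaks over 500 bases from starts it was 2.49 (2.10 to 2.96).

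The most significant peaks of each intron class were spread over unrelated hosts. After BCL3, the highest in intron 2 were in DCDC2, a doublecortin domain gene (chromosome 6, 24313698 to 24313988, −log10 q 4.50), and PDE4D, a cAMP phosphodiesterase (chromosome 5, 58495739 to 58496058, 4.25). In introns 3 to 5, RAP1GAP2 was followed by the monocarboxylate transporter gene SLC16A5 (chromosome 17, 73092247 to 73092659, 4.96) and by GAS8, a gene of motile cilia (chromosome 16, 90098271 to 90098956, 4.80, with 24.1% repeated 31-mers). ANKRD55 held the third highest of intron 6 and later (chromosome 5, 55419544 to 55420013, 4.56), in intron 8 of 11. The median −log10 q differed little between the classes, with 1.23 in intron 1, 1.17 in intron 2, 1.18 in introns 3 to 5 and 1.23 in intron 6 and later. The share with a q-value under 0.05 was 42.6% in intron 1 and 44.7% in intron 6 and later, a difference of -2.16 percentage points (-11.8 to 7.57).

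A further 139 intron peaks lay outside the canonical transcript of their host. They had the highest density of the classes, 0.981 per Mb (0.825 to 1.16), and their median −log10 q was 1.23. RAB11A, a small GTPase of recycling endosomes, held the third highest of them (chromosome 15, 66124964 to 66125492, 4.75), after FAM174B and ERCC1. For these peaks the host depends on the annotated extent of the gene, and 39 of the 795 intron peaks lay inside more than 1 protein-coding gene, where the shortest was taken.

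Gene length separated the densities more than intron number did. Genes under 20 kb had 1.68 intron peaks per Mb (1.25 to 2.21, 50 peaks) and genes of 20 to 50 kb had 1.14 (0.947 to 1.37, 117 peaks). Genes of 50 to 100 kb had 0.892 (0.752 to 1.05, 143 peaks) and genes of 100 to 200 kb had 0.915 (0.797 to 1.05, 215 peaks), which did not differ beyond their intervals. Genes of 200 to 500 kb had 0.638 (0.551 to 0.733, 196 peaks) and genes of 500 kb and over had 0.293 (0.230 to 0.368, 74 peaks). The ratio of genes of 500 kb and over to genes under 20 kb was 0.175 (0.120 to 0.255). Short genes have a higher GC content, and against the number expected from GC the ratio was 0.360 (0.248 to 0.526). It was 0.237 (0.153 to 0.369) within chromosomes. It was 0.312 (0.199 to 0.501) with the whole peak inside the definition, 0.310 (0.187 to 0.536) with peaks over 2000 bases from starts and 0.107 (0.0791 to 0.144) with peaks over 500 bases. The longest genes held fewer peaks per base in each of these computations, by a factor that depended on the setting. The median −log10 q was 1.21 in genes under 20 kb and 1.19 in genes of 500 kb and over.

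In genes of 500 kb and over, intron 1 was not denser than later introns. Intron 1 of these genes held 6 peaks in 41.8 Mb, or 0.143 per Mb (0.0526 to 0.312), while intron 6 and later held 34 in 87.4 Mb, or 0.389 per Mb (0.269 to 0.544). In genes of 20 to 50 kb intron 1 had 1.27 per Mb (0.874 to 1.78) and intron 6 and later had 0.489 (0.253 to 0.855). Intron 1 also had the higher density of the pair in the classes between 50 and 500 kb. In genes under 20 kb it had the lower, 1.84 (1.05 to 2.98, 16 peaks) against 2.31 (1.06 to 4.39, 9 peaks), with overlapping intervals. The intervals overlapped in genes of 500 kb and over, but overlap does not settle whether these densities differ, and their ratio was not tested. The difference between these length classes was not tested either.

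By the plain count, density fell with distance from the canonical start. It was 4.06 per Mb (3.01 to 5.37, 49 peaks) at under 2 kb, 1.01 (0.734 to 1.37, 43 peaks) at 2 to 5 kb and 0.997 (0.768 to 1.27) at 5 to 10 kb. It was then 0.898 at 10 to 20 kb, 0.848 at 20 to 50 kb, 0.754 at 50 to 100 kb, 0.598 at 100 to 200 kb and 0.388 (0.317 to 0.471, 103 peaks) at 200 kb and over. The ratio of 2 to 5 kb over 200 kb and over was 2.61 (1.79 to 3.76), and 1.72 (1.18 to 2.48) against the number expected from GC. The class under 2 kb begins at the limit of 1000 bases that the definition sets, and the ratio above leaves it out. Against the number expected from GC, the 5 classes from 2 to 100 kb were nearly level, at 1.11, 1.13, 1.07, 1.08 and 1.04 times that number. The class of 100 to 200 kb had 0.882 (0.726 to 1.06) and that of 200 kb and over had 0.641 (0.524 to 0.778). Positions 200 kb and over from a start exist only in genes at least that long, and distance was not examined within classes of gene length. When each gene was cut into 5 equal parts in the direction of transcription, the densities were 0.808, 0.801, 0.609, 0.691 and 0.758 per Mb, with overlapping intervals between neighbouring parts.

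Close to exons the density was higher by the plain count and under some other settings, but not under all of them. Within 200 bases of an exon it was 0.968 per Mb (0.718 to 1.28, 50 peaks), and over 10000 bases from any exon it was 0.529 (0.451 to 0.618, 161 peaks), a ratio of 1.83 (1.30 to 2.53). When the whole peak, and not its midpoint alone, had to meet the definition, the ratio was 0.475 (0.248 to 0.836), as a peak of usual width beside an exon then drops out. With peaks over 2000 bases from starts it was 1.46 (0.971 to 2.13), and against the number expected from GC it was 1.18 (0.840 to 1.63). The ratio stayed above 1 with a q-value under 0.05 (2.22, 1.31 to 3.64) and with peaks over 500 bases from starts (2.61, 1.97 to 3.43). Within chromosomes it was 1.50 (1.07 to 2.09).

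**Figure D2:**
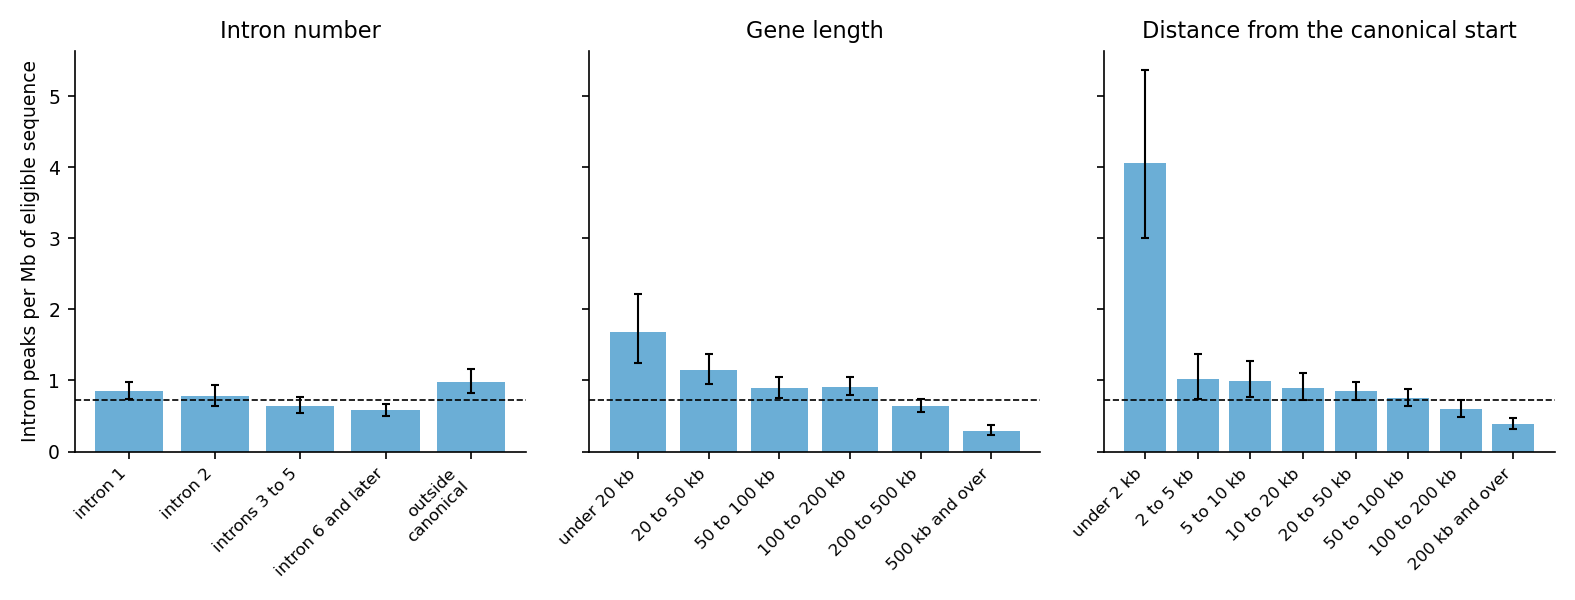
Intron peaks per Mb of eligible sequence (y axis) by intron number, gene length and distance from the canonical start (x axes), with exact 95% Poisson intervals. The dashed line is the mean of 0.731 per Mb, and the lowest bars are 0.585 in intron 6 and later, 0.293 in genes of 500 kb and over and 0.388 at 200 kb and over from the start.

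Host genes with a peak at a start had more intron peaks. A start peak means a YTHDC1 peak within 200 bases of at least one annotated start of the gene, a property the definition of intron peaks does not use. All peaks were searched for it, so a wide intron peak such as that of H2AC6 can itself count as a start peak. Of 20163 protein-coding genes, 15.7% had a start peak and 682 genes, 3.38% of them, held an intron peak. A start peak was present in 148 of the 682 host genes (21.7%, 18.8 to 24.9), against 2780 of the 17167 other genes with eligible sequence (16.2%, 15.7 to 16.8), a difference of 5.51 percentage points (2.52 to 8.80). Hosts were longer, with a median of 119.9 kb against 31.7 kb, so the comparison was also made per base. Genes with a start peak had 1.00 intron peaks per Mb (0.859 to 1.16, 180 peaks) and genes without one had 0.678 (0.626 to 0.734, 615 peaks), a ratio of 1.47 (1.24 to 1.74). With the whole peak inside the definition, which leaves out intron peaks that reach a start, the ratio was 1.49 (1.25 to 1.78).

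The ratio of genes with over genes without a start peak was 1.45 (1.23 to 1.71) within classes of gene length, 1.48 (1.25 to 1.75) against the number expected from GC and 1.23 (1.04 to 1.45) within chromosomes. By length, it was 2.70 (1.57 to 4.50) in genes of 500 kb and over, 2.16 (1.03 to 4.23) in genes under 20 kb and 1.44 (1.01 to 2.02) in genes of 200 to 500 kb. In the 3 classes between 20 and 200 kb it ran from 1.16 to 1.34, with intervals that included 1. By intron, it was 2.08 (1.43 to 3.004) outside the canonical transcript, 1.47 (1.02 to 2.08) in intron 1 and 1.12 (0.758 to 1.62) in intron 6 and later. Differences between these strata were not tested. Intron peaks of hosts with a start peak had a q-value under 0.05 in 42.2% of cases, against 43.6% in the other hosts, a difference of -1.36 percentage points (-9.37 to 6.91). Of the 3 pooled or adjusted ratios, the one within chromosomes was the smallest.

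Compared with peaks near starts and with intergenic peaks away from starts, intron peaks were weaker and narrower. The 264 peaks away from starts inside other genes were left out of these comparisons. Their median width was 312.5 bases and their median −log10 q 1.30, against 315 bases and 1.22 for intron peaks. A q-value under 0.05 was found for 344 intron peaks (43.3%, 39.9 to 46.7), against 52.1% of all peaks, 53.8% of peaks within 1000 bases of a start, 47.2% of exonic and 53.5% of intergenic peaks away from starts. The differences were -10.6 percentage points (-14.3 to -6.76) from peaks near starts and -10.2 (-14.8 to -5.50) from intergenic peaks, while that from exonic peaks, -3.90 (-11.4 to 3.56), included 0. Widths of 500 bases or more were found for 12.7% of intron peaks, against 25.1% near starts, 24.1% of exonic and 19.2% of intergenic peaks, and all 3 differences left out 0. With peaks over 2000 bases from starts the difference from exonic peaks was -4.53 percentage points (-12.1 to 1.43). In all, 57 differences between classes of peaks were computed and 31 had intervals that left out 0, with no adjustment for their number.

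Intron peaks were richer in GC than the mean of all eligible intron windows and poorer than peaks at starts. The difference from the introns of their own hosts was not tested. In the 300 bases around the midpoint they had a mean GC share of 48.3% and a CpG ratio (CpG dinucleotides over the number their bases would give) of 0.309, against 40.8% and 0.204 in the eligible intron sequence cut into windows of 300 bases. Peaks within 1000 bases of a start had 64.2% and 0.747. The number of intron peaks per 10000 windows was 0.955 (0.765 to 1.18) in windows under 35% GC, 2.06 (1.74 to 2.42) at 40 to 45%, 3.41 (2.83 to 4.08) at 50 to 55% and 20.9 (17.5 to 24.7) at 60% and over. The share of intron peaks with a q-value under 0.05 was 27.6% (19.3 to 37.8) under 35% GC and 52.6% (44.2 to 60.9) at 60% and over. Sequencing yield also depends on GC, and without an input library its part in these shares was not tested.

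A CpG-island-like composition, taken as 50% GC or more with a CpG ratio of 0.6 or more over 300 bases, was found at 79 intron peaks. This was 9.94% (8.05 to 12.2), against 76.2% of peaks near starts, 37.3% of exonic and 16% of intergenic peaks, and 0.863% of eligible windows. The difference from intergenic peaks was -6.06 percentage points (-9.17 to -2.90), and 0.438 (-2.93 to 3.81) when peaks over 500 bases from starts were taken. Island-like peaks lay early in their hosts, with 40.5% under 5 kb from the canonical start, against 8.38% of the other intron peaks, a difference of 32.1 percentage points (21.7 to 43.3). They made up 18.5% of peaks in intron 1 and 3.02% in intron 6 and later (difference 15.4, 9.55 to 21.7), and 4.44% in genes of 200 kb and over against 18.0% in genes under 50 kb. Their share with a q-value under 0.05 was 46.8%, against 42.9% of the other intron peaks, a difference of 3.96 percentage points (-7.25 to 15.4).

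Of the 15 motifs searched on both strands, AP-1 had the largest excess over eligible windows at the limit of 1000 bases, 13.5 percentage points (10.7 to 16.5), followed by SP/KLF with 11.8 (9.44 to 14.5), whose interval overlapped it. With peaks over 500 bases from starts SP/KLF had the larger excess, 18.4 (15.96 to 21.01), against 10.1 (7.78 to 12.6) for AP-1. AP-1 dimers of FOS and JUN proteins respond to growth and stress signals and bind many enhancers. Its letters TGANTCA were found within the 300 bases around the midpoint at 180 intron peaks in 170 hosts (22.6%, 19.9 to 25.7). The share was 9.14% over all eligible windows and 8.11% over windows of the same GC classes. It was 5.06% at peaks near starts and 11.8% at exonic peaks, with differences of 17.6 (14.7 to 20.7) and 10.8 (5.10 to 15.6) percentage points, and 20.4% at intergenic peaks, with a difference of 2.22 (-1.64 to 6.12). Among peaks with a q-value under 0.05 the difference from intergenic peaks was 8.49 percentage points (2.59 to 14.5), and with windows of 500 bases it was 4.81 (0.546 to 9.09). The call against intergenic peaks thus depended on the setting.

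The AP-1 matches gathered at the peak midpoints. Within 100 bases of the midpoints there were 1.02 matches per kb (162 matches), against 0.319 per kb at 1000 to 2000 bases from the same midpoints, a ratio of 3.20 (2.68 to 3.79). At intergenic peaks the ratio was 2.81 (2.36 to 3.32), and at peaks near starts it was 0.786 (0.668 to 0.920). The letters were then taken apart, a step chosen after the data were seen. TGACTCA with its reverse complement TGAGTCA had a ratio of 4.37 (3.54 to 5.37) at intron peaks, with 121 matches within 100 bases, and TGAATCA with TGATTCA had 1.78 (1.26 to 2.47), with 41 matches.

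**Figure D3:**
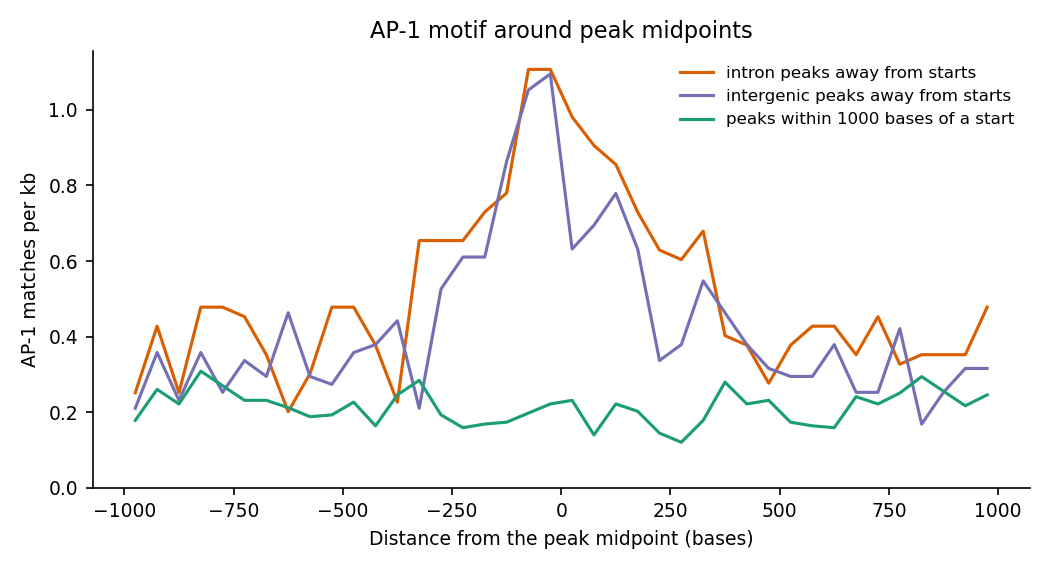
Matches to the AP-1 motif per kb (y axis) in steps of 50 bases by distance from the peak midpoint (x axis, bases), for intron peaks, intergenic peaks and peaks within 1000 bases of a start. Intron and intergenic peaks rise at the midpoint, to 1.02 and 0.868 matches per kb within 100 bases, while peaks near starts stay low, at 0.198.

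Intron peaks with an AP-1 match were more significant than the others. A q-value under 0.05 was found for 101 of the 180 with a match (56.1%), against 243 of the 615 without (39.5%), a difference of 16.6 percentage points (8.31 to 24.6). Their median −log10 q was 1.47, against 1.18 in those without. None of the 6 highest intron peaks had a match, and SULT2B1, the second GALNT2 peak, FAM174B and ERCC1 were those with one among the 12 highest, ERCC1 with 3. The share with a match was largest at a GC of 45 to 50% (32.8%, 25.1 to 41.5, against 9.30% of eligible windows of that GC) and smaller under 35% GC (10.3%, 5.54 to 18.5, against 9.43%) and at 60% and over (11.3%, 6.95 to 17.8, against 4.69%). Only 2 of the 79 island-like peaks had a match, 1.11% of the AP-1 peaks against 12.5% of the others. The share was 22.1% in intron 1 and 23.6% in intron 6 and later (difference -1.57, -9.82 to 6.73), and 24.4% in hosts with a start peak against 22.1% in the others (2.33, -4.33 to 9.78), so that neither difference left out 0.

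The AP-1 share was larger in long genes, with a lower value in the longest. It was 6.00% in genes under 20 kb, 11.97% at 20 to 50 kb, 24.5% at 50 to 100 kb, 27.0% at 100 to 200 kb, 29.1% at 200 to 500 kb and 17.6% at 500 kb and over. Genes of 200 kb and over had 25.9%, against 10.2% in genes under 50 kb, a difference of 15.7 percentage points (8.39 to 22.4). By distance from exons it was 6.00% within 200 bases and 31.7% (25.0 to 39.2) over 10000 bases away. The share of eligible windows with a match was not computed by gene length or by distance from exons. Mean GC at these peaks was 54.4% in genes under 20 kb, 45.5% at 200 to 500 kb and 42.6% at 500 kb and over. The part of GC in these differences was not tested. In all, 22 differences among intron peaks were computed and 8 had intervals that left out 0.

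Motifs of other enhancer-binding families were also more frequent at intron peaks. The TEAD motif GGAATG, read by the effectors of YAP signalling, was found at 24.4% of intron peaks (21.5 to 27.5), against 15.3% of eligible windows and 15.2% of those of the same GC. The C/EBP motif TTNNGCAA was found at 18.99% (16.4 to 21.9), against 15.5% and 11.8%. Its difference from eligible windows, 3.50 percentage points (0.923 to 6.37), was 2.05 (-0.0813 to 4.53) with windows of 200 bases and 1.34 (-0.807 to 3.73) with peaks over 500 bases from starts. The forkhead (FOX) motif TGTTTAC was found at 9.06% (7.25 to 11.3), against 4.71% and 3.52%. Both C/EBP and FOX matches were more frequent than at intergenic peaks, by 4.36 (0.849 to 7.92) and 3.90 (1.49 to 6.42) percentage points, whereas for TEAD, with 25.3% there, the difference was -0.861 (-4.90 to 3.23). The sequence further from intergenic peaks also held more TEAD matches, so that the TEAD comparison is not made on a like background. The FOX difference from exonic peaks, 5.28 (1.35 to 8.15), was 2.36 (-1.28 to 4.85) with windows of 200 bases. FOX matches occurred at 13.9% of peaks with an AP-1 match and 7.64% of those without, a difference of 6.25 percentage points (1.33 to 12.3), and for TEAD the figures were 25.6% and 24.1% (1.49, -5.31 to 9.04). One or more of the AP-1, TEAD, C/EBP and FOX motifs was present at 432 intron peaks, or 54.3%. The same share was not computed for eligible windows or other peaks, so no excess can be read from it.

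Matches to the FOX, TEAD and C/EBP motifs were also denser at the midpoints. The ratios of matches per kb within 100 bases over those at 1000 to 2000 bases were 2.06 (1.50 to 2.78) for FOX, 1.74 (1.47 to 2.06) for TEAD and 1.43 (1.17 to 1.74) for C/EBP. At intergenic peaks the ratios were also above 1, at 1.56 (1.07 to 2.21) for FOX, 1.39 (1.25 to 1.54) for TEAD and 1.24 (1.01 to 1.51) for C/EBP. TEAD matches were dense there at 1000 to 2000 bases as well, at 1.53 per kb against 0.560 per kb around intron peaks. The intervals treat matches as independent, also where several lie in the same region. At peaks near starts they were 0.566 for FOX, 0.734 for TEAD and 0.490 for C/EBP, each below 1. For the m6A consensus GGACT, here read as DNA on either strand, the ratio at intron peaks was 0.953 (0.835 to 1.08).

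The m6A consensus was found at 36.1% of intron peaks (32.8 to 39.5), against 34.6% of eligible windows, and the share lay below that of windows of the same GC, 39.9%. The sign and the call of this comparison depended on the setting, since the difference from eligible windows was 4.81 percentage points (1.88 to 7.81) with peaks over 500 bases from starts and 3.67 (0.198 to 7.11) with windows of 500 bases. Promoter motifs were less frequent than at peaks near starts. The SP/KLF motif GGGCGG was at 15.6% (13.2 to 18.3), against 57.3% near starts, 3.80% of eligible windows and 9.69% of those of the same GC. ETS (CCGGAAGT), YY1 (AAGATGGCG) and NRF1 (GCATGCGC) were found at 3, 3 and 2 intron peaks, or 0.377%, 0.377% and 0.252%, against 4.05%, 1.57% and 1.09% near starts and 0.116%, 0.0938% and 0.547% of eligible windows.

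The antioxidant response motif TGACNNNGC, which can overlap an AP-1 match, was at 14.7% of intron peaks against 8.83% of eligible windows, and the E-box CACGTG was at 6.04% against 2.73%. The heat shock motif GAANNTTC was at 7.92% against 8.36%, a difference within the interval. CCAAT and the GATA motif AGATAA were less frequent than in all eligible windows, at 31.2% against 36.8% and 16.4% against 21.1%, but not than in windows of the same GC, at 30.96% and 14.6%. The cAMP response motif TGACGTCA stood out by ratio, 9.02, yet on only 7 intron peaks (0.881%, 0.427 to 1.81, against 0.0976%). ZSWIM6 (−log10 q 7.60), MBP (3.55) and SLC23A2 (2.91) were the highest of these, named after their values were seen. Of the 15 motifs, 10 were above the share of all eligible windows, 2 below and 3 within the interval, and against windows of the same GC 9 were above, 1 below and 5 within.

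**Figure D4:**
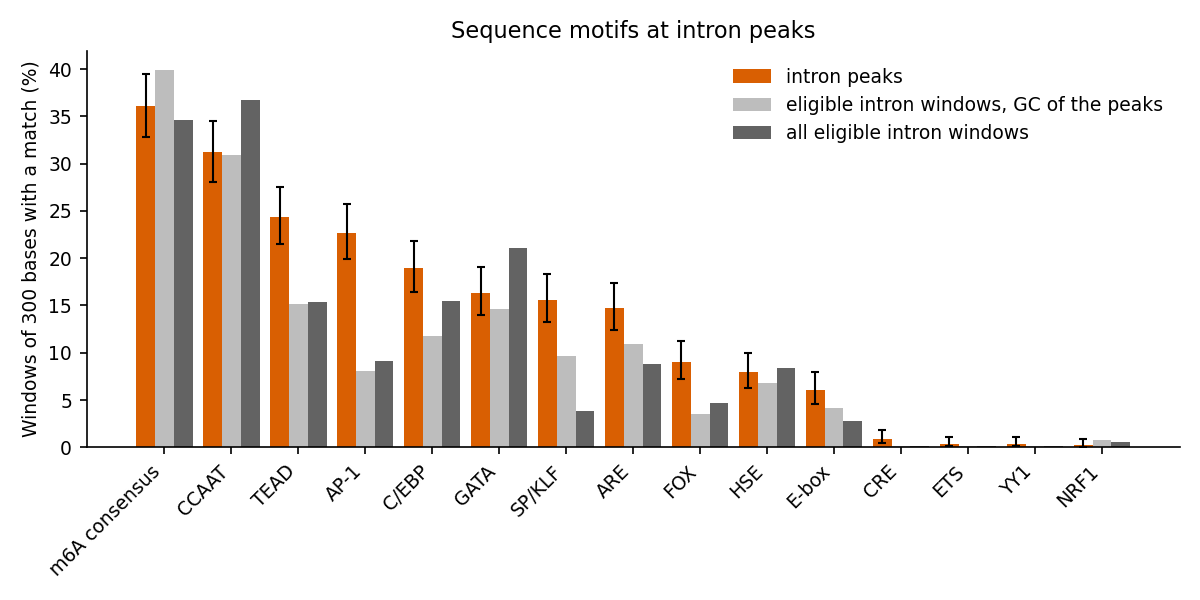
Percent of 300-base windows with a match (y axis) for 15 motifs (x axis) at intron peaks (orange, with 95% Wilson intervals), in eligible intron windows of the same GC (light grey) and in all eligible intron windows (dark grey). AP-1 has the largest gap, 22.6% at intron peaks against 8.11% and 9.14%, and the m6A consensus lies at 36.1% against 39.9% and 34.6%.

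Most hosts had a single intron peak. Of the 682 hosts, 585 held 1, 84 held 2, 11 held 3, and 2 genes held more. MACROD2, which removes ADP-ribose from proteins, held 5 in introns 4, 5, 6 and 8, with −log10 q of 0.749, 2.06, 1.50, 1.01 and 0.975 in the order of chromosome 20, in a gene of 2058 kb. PDE4D held 4 in a gene of 1553 kb on chromosome 5, at 58388956 to 58389278 (intron 5, 2.14), 58422893 to 58423293 (intron 5, 0.731), 58495739 to 58496058 (intron 2, 4.25) and 59052274 to 59052608 (intron 1, 1.57). Of these 9 peaks only those of 2.06, 1.50, 2.14, 4.25 and 1.57 had a q-value under 0.05. Both genes had a start peak, and per eligible Mb MACROD2 and PDE4D had 2.52 and 2.68 intron peaks.

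The hosts with 3 intron peaks were shorter. The 3 peaks of ALDH1A1, a retinaldehyde dehydrogenase gene, abutted each other on chromosome 9 (75611806 to 75612073, 75612105 to 75612352 and 75612399 to 75612630), with −log10 q of 1.80, 1.79 and 1.05, all 3 within 1 kb. AOPEP, an aminopeptidase gene, had 1.06, 2.40 and 1.78, the first pair in intron 13. BMPER, a modulator of BMP signalling, had 1.49, 0.941 and 1.30, all in intron 6 of 14. DCBLD2 had 0.817, 0.944 and 1.50, of which the first lay over 51.7% repeated 31-mers, and KYNU, the kynureninase gene, had 0.688, 0.946 and 1.82, the second over 56.5% repeated 31-mers. ITGB5, an integrin beta subunit gene, had 1.65, 1.43 and 1.25, in introns 5, 2 and 1. Of all intron peaks, 31 (3.90%) lay within 2000 bases and 140 (17.6%) within 50000 bases of another.

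The longest hosts were PTPRD (2299 kb), DLG2 (2173 kb), CSMD1 (2060 kb), MACROD2 and PDE4D. PTPRD, a receptor phosphatase gene, had 1 intron peak (−log10 q 1.10), DLG2, a synaptic scaffold gene, had 2 (highest 1.91) and CSMD1 had 2 (highest 0.878). None of these 3 genes had a start peak.

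Gene lists were described by counts beside those over all protein-coding genes, 3.38% with an intron peak and 0.731 intron peaks per Mb. The lists were written with earlier results of these data known, so an excess in a list is no independent finding. Integrin and focal adhesion genes, which tie cells to the matrix, had an intron peak in 6 of 35 cases (17.1%, 8.10 to 32.7) and 2.99 peaks per Mb (1.49 to 5.35). NEDD9, a docking protein of focal adhesions, had the highest (chromosome 6, 11194804 to 11195082, −log10 q 2.56, intron 2), with an AP-1 match. TNS4, a tensin gene, had 2.34 in intron 1, followed by ITGB5 with 1.65. TLN2, encoding a talin, had at most 1.03, TNS3 at most 0.906 and ITGA2 0.829, all with q-values above 0.05.

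TGF-beta and SMAD signalling genes had an intron peak in 5 of 26 cases (19.2%, 8.51 to 37.9) and 2.68 per Mb (0.985 to 5.84). The inhibitory SMAD gene SMAD6 had 2.61 (chromosome 15, 67058236 to 67058541, intron 3 of 3), and LTBP1, which anchors latent TGF-beta in the matrix, had 2.21 in intron 3 and 1.16 in intron 32 of 33. The ligand gene TGFB2 had 1.36 in intron 1 and the signal transducer SMAD3 had 1.30 in intron 1, 1.04 kb from its canonical start. Receptor tyrosine kinase and MAPK genes had an intron peak in 5 of 36 cases (13.9%, 6.08 to 28.7) and 1.38 per Mb (0.448 to 3.22). MET, the receptor of hepatocyte growth factor, had 2.56 in intron 2 of 20 (chromosome 7, 116356767 to 116357067) with an AP-1 match, and EPHA2 had 2.04. EGFR, the receptor of epidermal growth factor, had 0.902 in intron 1, also with an AP-1 match, and the phosphatase gene DUSP1 had 0.873, both with q-values above 0.05.

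Transcription coregulators had an intron peak in 5 of 38 genes (13.2%, 5.75 to 27.3) and 1.57 per Mb (0.632 to 3.24). RERE had 2.02, the demethylase gene KDM6B 1.62 and ARID1A, a subunit of SWI/SNF remodellers, 1.21. Epithelial keratin and junction genes had an intron peak in 4 of 32 cases (12.5%, 4.97 to 28.1), led by KRT86 (2.64) and KRT7 (1.65), and followed by TJP1 (1.10) and PARD3 (1.03). The KRT86 peak lay outside the canonical transcript of that gene. The phosphodiesterase list had 2 of 21, PDE4D, and PDE4B with 2.42 in intron 3 (chromosome 1, 66648426 to 66648776). Cyclic AMP and cyclic GMP are broken down by this family, and no other member held an intron peak.

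The lists tied to the study's subject held 1 or 2 hosts each, with intervals that included the 3.38% of all genes. DNA damage response and repair genes had 2 of 51 (3.92%, 1.08 to 13.2), ERCC1 with 5.23 and the Fanconi anaemia gene FANCD2 with 1.46 (chromosome 3, 10083993 to 10084288, intron 10 of 43), at a density of 0.472 peaks per Mb (0.0572 to 1.71). The m6A writers, readers and erasers had 2 of 23 (8.70%, 2.42 to 26.8), the readers IGF2BP3 with 1.14 and HNRNPA2B1 with 1.03, neither under a q-value of 0.05, and 1.55 peaks per Mb (0.188 to 5.604). The ERCC1 and HNRNPA2B1 peaks lay outside the canonical transcripts of these genes. NRF2 targets, genes of the oxidative stress response, had 1 of 33 (3.03%, 0.537 to 15.3), AKR1B10 with 1.78 in intron 4, and 0.855 peaks per Mb (0.0216 to 4.76). Targets of p53 had 1 of 27 (3.70%, 0.657 to 18.3), the cytokine gene GDF15 with 1.29 in its only intron, and 1.40 peaks per Mb (0.0355 to 7.80). All 4 density intervals included the 0.731 per Mb of all eligible sequence. Very long neuronal and fragile site genes had the largest share of hosts, 9 of 41 (22.0%, 12.003 to 36.7), and the lowest density, 0.266 per Mb (0.149 to 0.439), with a median gene length of 1307 kb. CTNNA2, an alpha-catenin gene, had 2.14 in intron 7, the highest of that list. The lists differ in gene length, and counts of hosts and densities ranked them differently.

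Genes that the study followed in detail were then looked up, whatever their values. No intron peak lay in ATR, the kinase of replication stress, with 86.4 kb of eligible sequence, in BIRC6 with 206 kb or in YTHDC1 itself with 26.6 kb. CDKN1A and METTL3 offered only 5.08 and 3.60 kb and held none. ATR, BIRC6 and CDKN1A had a start peak, while YTHDC1 and METTL3 had none. At the mean density fewer than 1 peak is expected in each of these 5 genes, so that 0 peaks in a gene cannot be told apart from the mean density.

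Intron peaks were unevenly spread over the chromosomes. Chromosome 19 had 2.25 per Mb (1.66 to 2.97, 49 peaks), chromosome 17 had 1.64 (1.23 to 2.14, 54 peaks) and chromosome 20 had 1.48 (1.03 to 2.06, 35 peaks). At the other end, chromosome 13 had 1 intron peak in 29.0 Mb (0.0345, 0.000872 to 0.192), X had 0.154 (0.0618 to 0.317, 7 peaks), 18 had 0.237 (0.0872 to 0.517, 6 peaks) and 4 had 0.250 (0.143 to 0.406, 16 peaks). Against the number expected from GC, chromosomes 17, 19 and 20 had 1.62, 1.73 and 1.62 times that number, and chromosomes 13, X and 18 had 0.0554 (0.00140 to 0.308), 0.255 (0.102 to 0.525) and 0.356 (0.131 to 0.776). Intron peaks were 1.56% of the 64 peaks on chromosome 13, 4.76% of the 63 on 21 and 17.3% of the 336 on 10. They were 54 of the 513 peaks on 17 and 49 of the 466 on 19, smaller shares than the 12.5% of the whole set. The shares were 13.6% on 20, 11.8% on 4, 9.59% on X and 8.96% on 18. The high densities on 17 and 19 were thus not particular to intron peaks. Differences of these shares from that of the whole set were not tested.

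**Figure D5:**
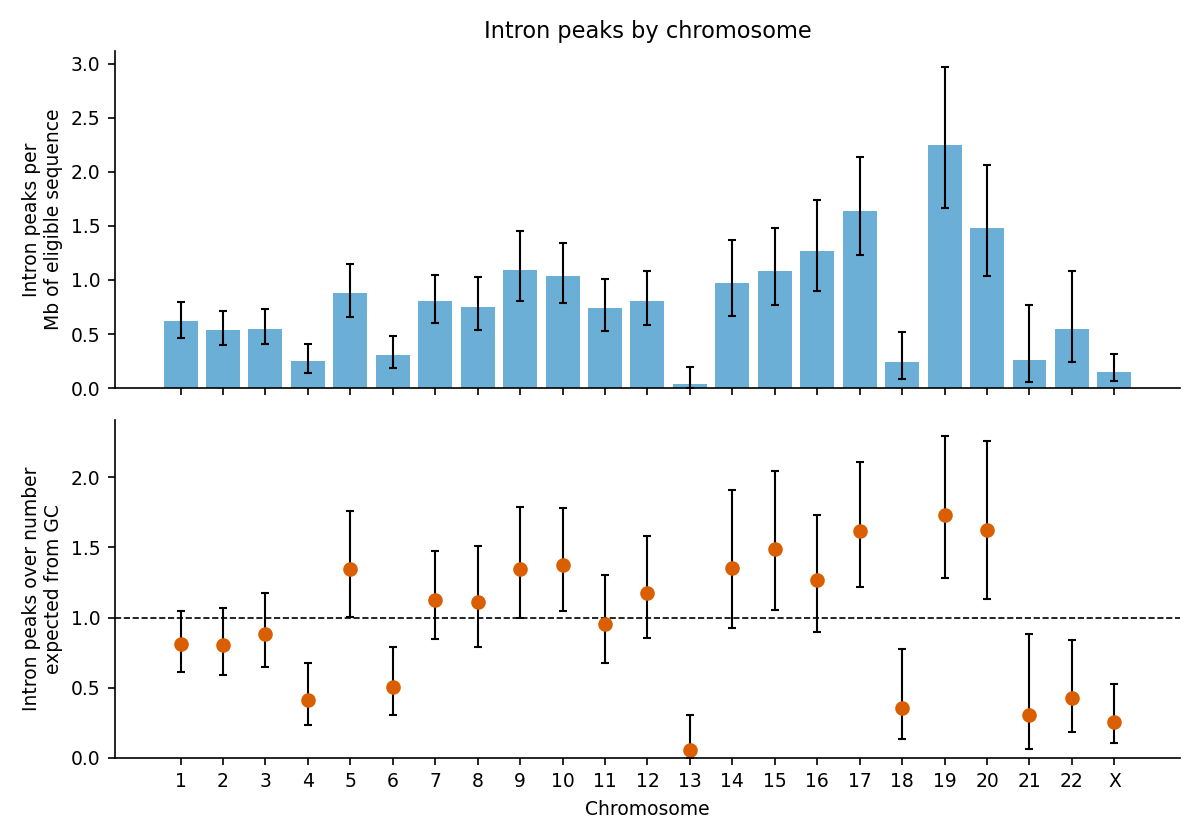
Intron peaks per Mb of eligible sequence (upper panel) and their number over that expected from GC (lower panel) for each chromosome (x axis), with exact 95% Poisson intervals and a dashed line at 1. The intervals of chromosomes 5, 10, 15, 17, 19 and 20 lie above the expected number, and those of chromosomes 4, 6, 13, 18, 21, 22 and X lie below it.

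The limit of 1000 bases did not fall at a break in the data. The intron peaks just inside were in IGFBP4 (1004 bases from the nearest start, −log10 q 1.45), CYTH3 (1009 bases, 0.909), EPHA2 (1012 bases, 2.04), H2AC6 (1019 bases, 3.04) and NFIC (1020 bases, 1.16). Just outside were peaks in ALDH1A1 (1000 bases, 2.51), FTCD (998 bases, 0.941), JAKMIP1 (998 bases, 2.85), MYO1E (997 bases, 1.10) and KCNIP3 (991 bases, 1.65). The 85 intron peaks up to 1500 bases from a start had a median −log10 q of 1.14 and a median GC of 55.3%, and the 248 intronic peaks between 500 and 1000 bases from a start had 1.32 and 60%.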

How the data were processed

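The peak list was deposited as 1 table of −log10 q-values per peak: the authors pooled 3 replicates of YTHDC1 ChIP-seq in A549 cells and called broad peaks with MACS2 (q 0.1, broad cutoff 0.25) on hg19. That the column is −log10 q is inferred, since its lowest value, 0.610, lies just above −log10 of 0.25 (0.602). The paper's methods name Bowtie2 and the submitters' processing notes BWA, deepTools and MACS2, and peak names point to a merging step that is not described. Depth per sample is unknown, so no value carries a replicate error.

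Peaks were placed on GENCODE release 44 mapped to GRCh37, and the GRCh37 sequence was read from the matching reference. Eligible sequence was that the definition of intron peaks allows, and motif shares were taken over all 3531487 windows of 300 bases tiled over it. Where several protein-coding genes held a midpoint the shortest was the host, and 282 protein-coding genes without a canonical transcript had no intron number. Shares carry Wilson, differences of shares Newcombe, densities exact Poisson and ratios exact conditional intervals, all at 95%. A difference was called where its interval left out 0, or 1 for a ratio. Ratios pooled within chromosomes or length classes are Mantel-Haenszel ratios. The number expected from GC is the eligible length times the mean rate of peaks for the GC of its windows, scaled to 795. Python 3.11.15, numpy 2.4.6, pandas 2.3.3, scipy 1.17.1, numba 0.67.0 and matplotlib 3.10.9 were used, and 22 of 22 checks on made-up data passed.

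The intron peaks, gene lists and motifs were chosen with earlier results of these data known. Named genes were the 12 highest and 5 widest intron peaks, the 8 hosts with most, the 3 highest per intron class, the 5 longest hosts, up to 4 hosts per gene list and genes the study followed. A few of these are not reported here. Sequences were those of the 5 highest peaks and of the 3 highest with the motif most over-represented against eligible windows, under 10% repeated and not on chromosome 8. Over-representation was taken as the difference of shares, and by ratio the cAMP response motif would have led on 7 peaks. Alternatives were a q-value under 0.05, the whole peak inside the definition, limits of 500 and 2000 bases, other windows and hosts. The GC expectations, the pooled ratios and the AP-1 cores apart were added after the data were seen.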

Additional observations from a re-analysis of the deposited data

How the results depend on the processing

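Over 37 results and 301 alternatives, 272 values kept their side of the interval. Among these, differences for the heat shock motif and the m6A consensus changed sign under some settings while their intervals included 0. Taking only peaks with a q-value under 0.05 left 344 intron peaks in 310 hosts, and gave AP-1 minus intergenic peaks of 8.49 percentage points (interval now leaving out 0), FOX minus exonic peaks of 6.63 (now including 0) and ETS minus eligible windows of -0.116 (reversed, on 0 peaks). With windows of 500 bases AP-1 minus intergenic peaks was 4.81, and with windows of 200 bases FOX minus exonic peaks was 2.36 and ETS -0.0759. With peaks over 2000 bases from starts the ratio of intron 1 over intron 6 and later was 1.17, that of 1 to 200 over more than 10000 bases from an exon 1.46, wide peaks minus exonic peaks -4.53 and FOX minus exonic peaks 4.92, each with an interval that no longer left out no difference. Over 500 bases from starts, island-like composition minus intergenic peaks was 0.438. With the whole peak inside the definition the exon ratio was 0.475, by the construction of that setting, and against GC it was 1.18. Against windows of the same GC the differences reversed to -3.84 for the m6A consensus, 0.233 for CCAAT and 1.72 for GATA. The cause of the other changes was not tested. No paired analysis was possible because there is 1 group with pooled replicates, and for the same reason no replicate could be left out. Intervals treat neighbouring peaks as independent and no input library was used.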

Other observations

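Repeated sequence differed between the classes of peaks. At least 10% repeated 31-mers were found at 9.56% of intron peaks, against 3.47% of peaks within 1000 bases of a start (difference 6.09 percentage points, 4.14 to 8.39), 7.08% of exonic and 18.4% of intergenic peaks (difference -8.86, -12.0 to -5.62). Of the 795 intron peaks, 627 held no repeated 31-mer and 13 held more than 50%. A total of 120 intron peaks (15.1%) lay within 10000 bases of another peak of any class.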
